A study of Rattus norvegicus with 12 samples.

Results

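The proteasome subunit genes of rat hippocampus are described here by 44 of the 15923 probe sets of an oligonucleotide array, which stand for 41 of the 10412 genes that the annotation names with 1 symbol. They were chosen by name, as every probe set whose only gene symbol in the array annotation starts with Psma, Psmb, Psmc, Psmd, Psme, Psmf or Psmg. The inducible subunits Psmb8 and Psmb9 were left out by that rule. Of the 44, 42 probe sets of 39 genes stand for subunits, regulators or assembly factors of the proteasome. The other members, Psmc3ip and Psme3ip1, carry the prefix because they are named for binding to Psmc3 and Psme3. They are not subunits and are described apart. The alpha rings of the core were measured by 7 probe sets, the standard beta rings by 6 and the inducible beta subunit Psmb10 by 1. The core chaperones had 4, the ATPases of the cap 5, its other subunits 10, its chaperones 3, the activators 5 and the inhibitor 1.

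Hippocampal RNA came from pools of 3 to 4 rats that were treated at postnatal day 20, with 1 array per pool and 3 pools in each of 4 groups. KA_isolated rats received KA and were kept in individual cages for 10 days. PBS_isolated rats received PBS and were kept alone in the same way. KA_enriched rats received KA and lived 8 to a large cage, and PBS_enriched rats received PBS and lived likewise, for a time that the labels of these groups do not give. KA is taken as kainic acid, a glutamate receptor agonist that induces seizures, and PBS is its vehicle. The series asks about housing and the injury that follows seizures. No group lived in ordinary company, so enrichment and the absence of isolation cannot be told apart, and animals that shared a cage or litter are not named.

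The proteasome is the barrel-shaped protease that degrades ubiquitin-tagged proteins in all cells. Alpha subunits form the outer rings and the gate of its core, beta subunits form the inner rings and hold the catalytic sites, and a cap of ATPases and other subunits binds, unfolds and feeds in the substrate. In neurons the complex takes part in the turnover of synaptic proteins, and interferon exchanges some catalytic subunits and raises an alternative activator.

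Promoters of proteasome genes are shown for the members that the comparisons below turn on. Psmb5 was the member whose housing groups did not overlap, Psmd4 had the smallest p-value of any member, and Psmb10 and Psme2 belong to the interferon-inducible branch. Each sequence is the 250 bases before the RefSeq start of the gene in GRCr8, read 5′ to 3′ on the strand of the gene, and capitals mark the motifs that were searched.

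Psmb5, chr15:32047380-32047629, minus strand: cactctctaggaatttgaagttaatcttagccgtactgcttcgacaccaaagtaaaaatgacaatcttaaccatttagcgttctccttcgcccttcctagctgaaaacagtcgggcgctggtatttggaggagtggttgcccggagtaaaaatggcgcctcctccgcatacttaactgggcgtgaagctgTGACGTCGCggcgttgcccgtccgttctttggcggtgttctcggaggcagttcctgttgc
Psmd4, chr2:185297202-185297451, minus strand: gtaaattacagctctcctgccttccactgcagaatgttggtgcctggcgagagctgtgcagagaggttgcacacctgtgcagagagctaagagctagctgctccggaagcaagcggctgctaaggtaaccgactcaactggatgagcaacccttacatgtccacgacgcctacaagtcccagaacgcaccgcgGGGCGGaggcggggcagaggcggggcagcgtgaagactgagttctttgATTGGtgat
Psmb10, chr19:50743293-50743542, minus strand: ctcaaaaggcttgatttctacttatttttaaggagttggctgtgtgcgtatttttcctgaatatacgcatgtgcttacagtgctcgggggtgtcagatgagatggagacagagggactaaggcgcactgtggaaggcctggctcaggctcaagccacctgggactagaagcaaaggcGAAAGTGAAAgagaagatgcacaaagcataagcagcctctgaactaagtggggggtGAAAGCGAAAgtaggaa
Psme2, chr15:33052752-33053001, minus strand: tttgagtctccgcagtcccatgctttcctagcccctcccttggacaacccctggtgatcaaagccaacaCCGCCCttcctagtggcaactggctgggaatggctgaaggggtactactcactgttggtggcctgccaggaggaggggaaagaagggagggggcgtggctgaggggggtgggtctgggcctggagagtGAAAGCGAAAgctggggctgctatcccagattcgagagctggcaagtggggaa

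The capitals in Psmb5 are a match to TGACNNNGC, the letters of the antioxidant response element that NFE2-related factors bind. Those in Psmd4 are a match to GGGCGG, the Sp1 box, and one to CCAAT, the NF-Y box, read on the other strand. Psmb10 held 2 matches to the interferon-stimulated response element, searched as GAAA, any 2 bases and GAAA, and Psme2 held 1 beside 1 Sp1 box. Promoters were found for 39 of the 41 genes and searched on both strands, as were all 33469 promoters of the table. TGACNNNGC was in 6 member promoters (15.4%), those of Psma3, Psmb2, Psmb5, Psmd1, Psmd9 and Psme4, and in 10.1% of all promoters. The interferon element was in 5 (12.8%), those of Psma4, Psmb3, Psmb10, Psmd7 and Psme2, and in 3.41% of all promoters. CCAAT was in 20 (51.3%), against 34% of all, and GGGCGG in 27 (69.2%), against 30.5% of all. A match is a run of letters and was not tested as a binding site.

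All 44 members were among the 9520 probe sets bright enough to be tested. Array medians lay between 70.06 and 74.1 signal units. Array KA_enriched replicate 3 had the highest 3′ to 5′ signal ratio of the beta-actin control, 0.85 on the log2 scale against 0.36 to 0.64 in the other arrays, a sign of RNA quality. Of the hippocampal neuron markers, 11 of 12 were measured, all above the filter, and their summed signal stayed between 12073 and 13155. The choroid plexus markers summed to 3390 in PBS_isolated replicate 1 and to at most 1254 elsewhere.

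No proteasome probe set passed the test in any of the 7 comparisons of treatment and housing. The test was limma on log2(signal + 17), with p-values adjusted over all 9520 probe sets and a threshold of 0.05. KA against PBS in isolated rats called 0 of 44 members and 0.0105% of all probe sets, and in enriched rats 0 of 44 and 0%. Enriched against isolated housing called 0 of 44 and 0.0105% after PBS, and 0 of 44 and 0% after KA. The mean KA effect over both housings called 0 of 44 and 0.0105%, the mean housing effect 0 of 44 and 0.021%, and the interaction (KA effect in enriched minus KA effect in isolated rats) 0 of 44 and 0%. At an unadjusted p under 0.05, in the same order, 0, 1, 1, 1, 2, 1 and 1 members passed, against 4.31%, 4.98%, 4.21%, 7.02%, 4.31%, 5.64% and 4.97% of all probe sets. The members that passed unadjusted are named with their class. In RNA from whole tissue, fewer cells of a type and less RNA per cell cannot be told apart, and p-values here measure the spread between pools.

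Signals of the subunit genes varied little. The ratio of the highest to the lowest of the 12 pools had a median of 1.26 over the 44 members, against 1.39 over all probe sets tested, and it was under 1.5 for 34 members (77.3%), against 67% of all. The ATPase Psmc4 had the smallest ratio, 1.07, and the inhibitor Psmf1 the largest, 2.08. The members' median within-group SD was 0.092 on the log2 scale, against 0.12 for all probe sets tested. The members are brighter than most: 23 of them lay among the brightest 2380 probe sets, where members had a median SD of 0.089 and all of those probe sets 0.096.

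**Figure D1:**
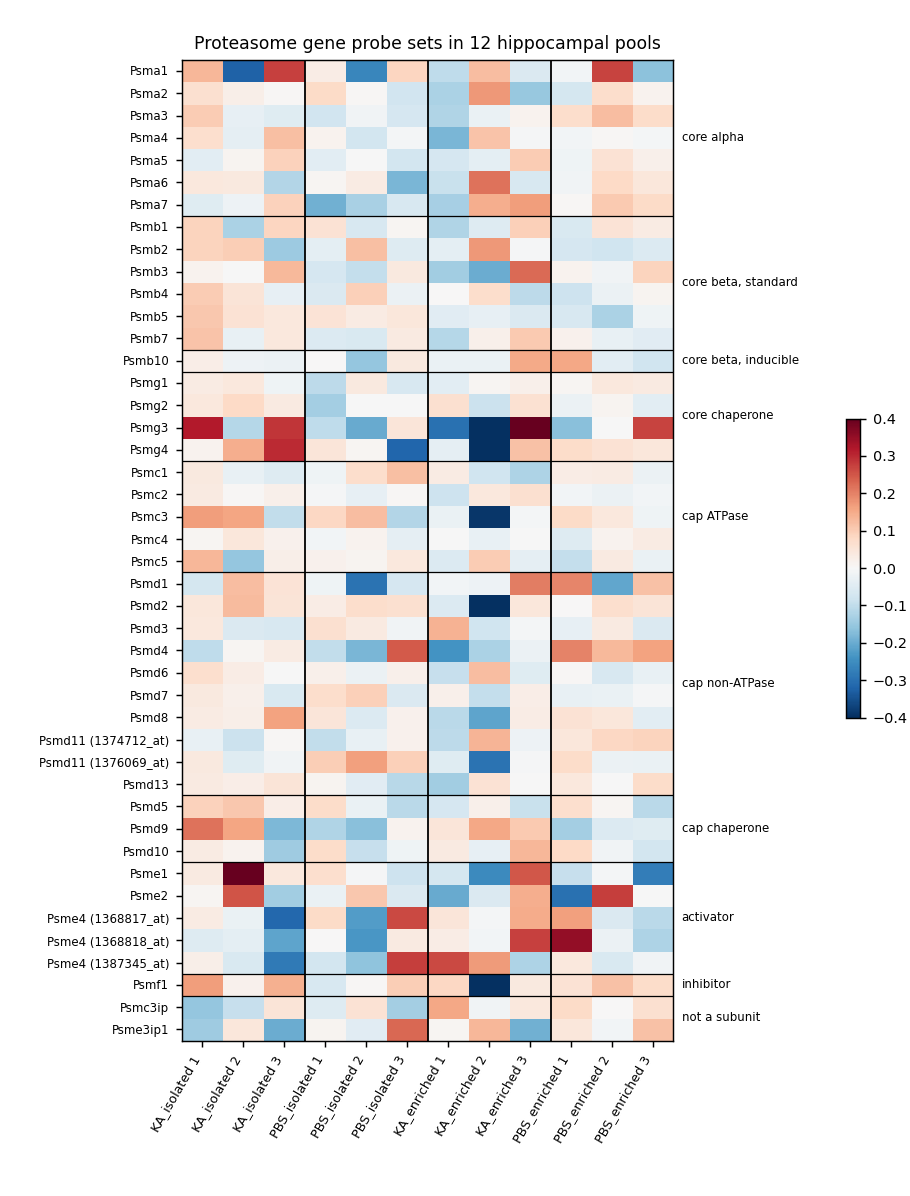
Log2 signal of each of the 44 probe sets (rows, ordered by class) in each of the 12 pools (columns), minus the mean of that probe set; colours end at -0.4 and 0.4. No member passed the test in any comparison; among the lowest cells are Psmf1 and Psmd2 in KA_enriched replicate 2.

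The KA pools held most of the extremes. In KA_enriched, replicate 2 was the lowest of the 12 pools for 10 members and the highest for 5, together 34.1% of members, against 26.4% of all probe sets tested. Its replicate 1 was the lowest for 8 and the highest for 2 (22.7%, against 12.7% of all), and its replicate 3 the lowest for 3 and the highest for 8 (25%, against 33.3% of all). The KA_isolated pools were the lowest or highest for 18.2%, 20.5% and 22.7% of members, against 13.7%, 15.3% and 15.4% of all. The PBS pools were so for 6.82% to 15.9% of members each, against 12.4% to 17.2% of all. The part of RNA quality in these extremes was not tested.

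The alpha subunits Psma1 to Psma7, which form the outer rings, differed by little between KA and PBS pools. In isolated rats all 7 lay above 0 (47.7% of all probe sets tested), with a median log2 difference of 0.059. In enriched rats 0 of 7 did (48.7% of all), with a median of -0.021, or 1 of 7 with arrays set to equal medians or after quantile normalization. For PBS_enriched against PBS_isolated, where no KA was given, all 7 also lay above 0 (51% of all), with a median of 0.080. That count was 6 of 7 with equal medians. Psma7 had 559, 569 and 617 signal units in KA_isolated pools, against 504, 527 and 552 in PBS_isolated pools. It had 526, 641 and 651 in KA_enriched pools and 581, 622 and 611 in PBS_enriched pools. All KA_isolated pools and all PBS_enriched pools therefore lay above all PBS_isolated pools, while the enriched groups overlapped. The difference of PBS_enriched from PBS_isolated was 0.19 (SE 0.088, adjusted p = 0.998, limma), with an unadjusted p of 0.047. Over both treatments the difference of enriched from isolated pools was 0.12 (SE 0.062, adjusted p = 0.875). The KA comparison in isolated rats and the housing comparison after PBS use the same PBS_isolated pools. For PBS_enriched against PBS_isolated, groups without overlap were found for 3 members that were higher (5.49% of all probe sets tested), Psma3, Psma7 and Psmd11 1374712_at. For 3 others, Psmb2, Psmb5 and Psmd11 1376069_at, they were lower (6.11% of all).

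Psma3 was the alpha subunit with the smallest p for KA in enriched rats. It had 198, 212 and 219 signal units in KA_enriched pools and 228, 237 and 229 in PBS_enriched pools, without overlap. The log2 difference was -0.13 (SE 0.071, adjusted p = 0.932). In isolated rats it had 234, 211 and 209 after KA and 205, 214 and 206 after PBS, and those groups overlapped. The log2 difference of PBS_enriched from PBS_isolated was 0.14 (SE 0.071, adjusted p = 0.998). Psma1 was the most variable alpha subunit, with a highest to lowest ratio of 1.54 and both extremes inside KA_isolated, at 481 in replicate 3 and 312 in replicate 2.

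The beta subunits Psmb1 to Psmb4 shape the inner rings without a proteolytic site. Psmb2 had 539, 628 and 552 signal units in KA_enriched pools, against 529, 523 and 534 in PBS_enriched pools. The groups did not overlap, and the log2 difference was 0.11 (SE 0.089, adjusted p = 0.942), or 0.044 without KA_enriched replicate 2. In isolated rats Psmb2 had 591, 595 and 499.6 after KA and 539, 604 and 534 after PBS, with overlap. Psmb1, Psmb3 and Psmb4 had log2 differences between 0.017 and 0.088 for KA in isolated rats and between -0.066 and 0.020 in enriched rats.

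Psmb5 carries the chymotrypsin-like site, the target of bortezomib. It was lower in enriched than in isolated housing in every pool. KA_enriched pools had 950.3, 959.6 and 942 signal units and PBS_enriched pools 939, 899 and 970.3, against 1059, 1023 and 1012 in KA_isolated pools and 1019, 1005 and 1014 in PBS_isolated pools. The mean was 943 ± 24.7 over the enriched pools and 1022 ± 18.9 over the isolated pools (SD, n = 6 each). The log2 difference of enriched from isolated was -0.11 (SE 0.045, 95% interval -0.21 to -0.017), a fold of 0.924. Its unadjusted p was 0.025 and its adjusted p 0.832, so it did not pass the test. After PBS alone it was -0.11 (SE 0.064, adjusted p = 0.998). Groups without overlap over both treatments were found for 1 of 44 members that was lower and for 0.116% of all probe sets tested, and for 0 that were higher, against 0.189% of all. For the mean housing effect, 0 of 6 standard beta subunits and 0 of 5 ATPases lay above 0, against 51% of all probe sets tested, or 41.1% with equal array medians. After quantile normalization 2 of the 6 beta subunits lay above 0. Of the alpha subunits 5 of 7 lay above 0, or 3 of 7 with equal medians. Psmb10, 2 of 3 cap chaperones and 3 of 5 activator probe sets also lay above 0. Of the cap subunits other than ATPases 4 of 10 did, of the core chaperones 1 of 4, and Psmf1 lay below 0.

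**Figure D2:**
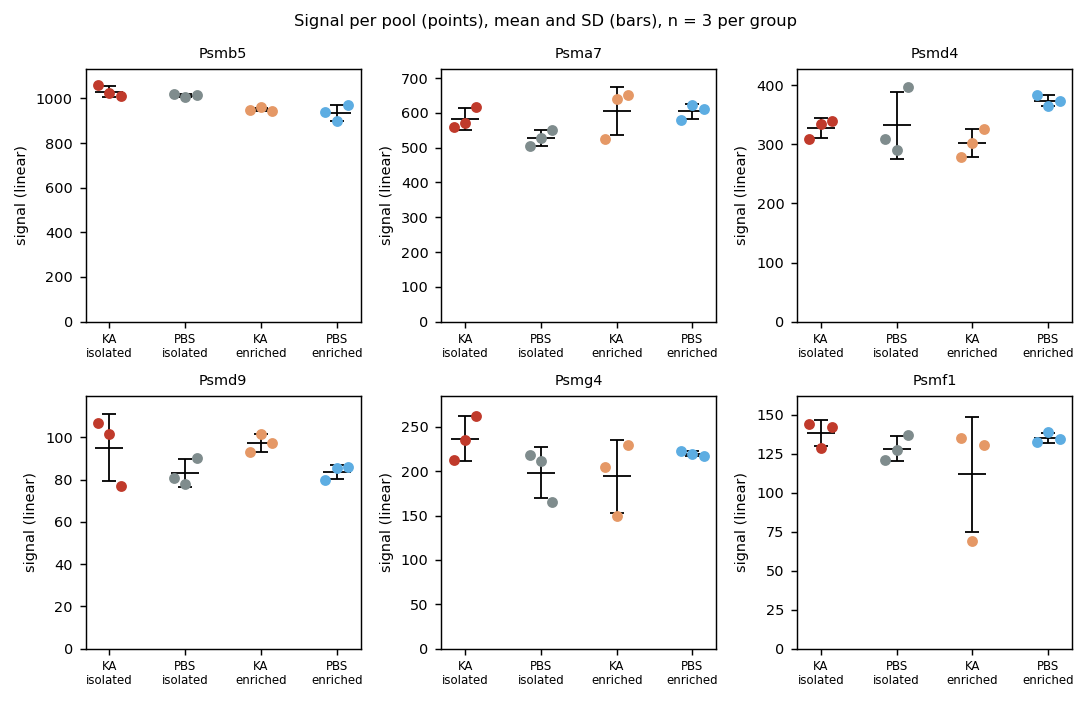
Signal of 6 members in each pool (points) on a linear axis from 0, with the group mean and SD (bars, n = 3), for KA_isolated, PBS_isolated, KA_enriched and PBS_enriched. The 6 enriched pools of Psmb5 lie at 899 to 970.3, below the isolated pools at 1005 to 1059, and Psmf1 has 1 low pool, KA_enriched replicate 2 at 69.3.

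Psmb7 carries the trypsin-like site, and Psmb10 takes its place in the immunoproteasome. Psmb7 averaged 1190.3 ± 60.5 signal units in KA_isolated pools and 1134 ± 44.4 in PBS_isolated pools (SD, n = 3 each). It averaged 1159 ± 88.9 in KA_enriched pools and 1139.6 ± 25.5 in PBS_enriched pools. Psmb10 had 158, 153 and 152 in KA_isolated pools and 155, 138 and 159.7 in PBS_isolated pools. It had 152, 152 and 174 in KA_enriched pools and 175, 150.1 and 146 in PBS_enriched pools. Groups overlapped for both genes in both housings. For KA in isolated rats the log2 difference was 0.068 (SE 0.076) for Psmb7 and 0.033 (SE 0.086) for Psmb10, both with an adjusted p of 0.999.

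Taken over both rings, the core leaned the same way in every member for KA in isolated rats. All 14 core probe sets lay above 0, between 0.0049 and 0.14 with a median of 0.047, against 47.7% of all probe sets tested above 0, and none of the 14 passed the test. The count was 14 with arrays set to equal medians, 12 after quantile normalization and 11 to 14 when 1 pool at a time was left out. The 14 were read on the same pools and are not independent. Their mean log2 signal, each probe set taken minus its own mean, was 0.062, -0.022 and 0.037 in KA_isolated pools. In PBS_isolated pools it was -0.020, -0.041 and -0.021, so the groups overlapped. In enriched rats 5 of the 14 lay above 0, with a median of -0.019, against 48.7% of all. That count was 4 to 11 when 1 pool was left out, with 11 reached without KA_enriched replicate 1. For PBS_enriched against PBS_isolated, which shares the PBS_isolated pools, 11 of 14 lay above 0, against 51% of all. That last count was 8 with equal medians, against 44.1% of all, 11 after quantile normalization and 7 to 11 when 1 pool was left out. The difference between the KA effects, enriched minus isolated, lay above 0 for 1 of 14, with a median of -0.060, against 49.8% of all. Beside the isolated comparison, the 6 astrocyte markers summed to 9552 to 10088 in KA_isolated pools, against 8658 to 9217 in PBS_isolated pools, and 16 microglial and macrophage markers to 2748 to 3240, against 1993 to 2127. The part of these cells, and of the choroid plexus signal of PBS_isolated replicate 1, in the counts was not tested.

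**Figure D3:**
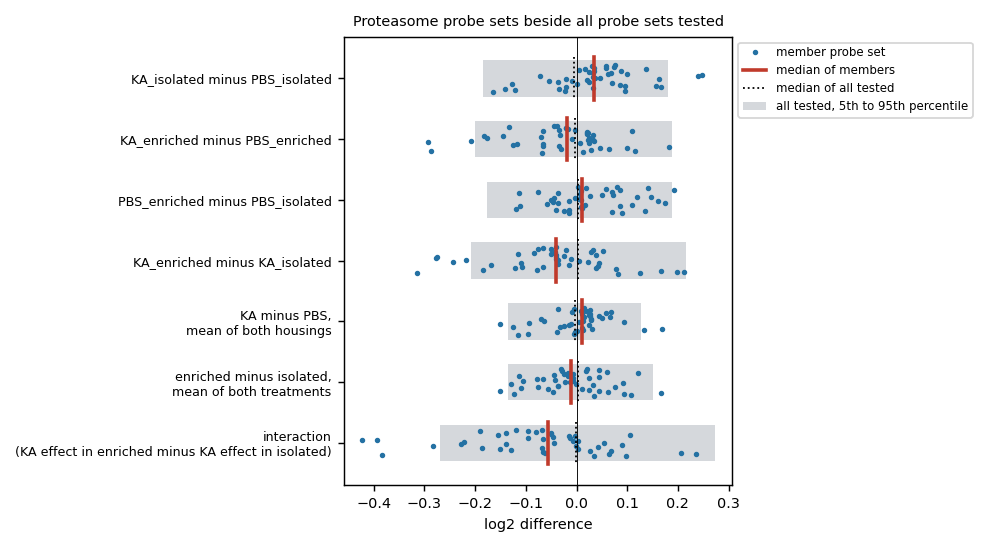
Log2 difference of each of the 44 members (points) and their median in the 7 comparisons, beside the 5th to 95th percentile of all 9520 probe sets tested (bars). The members' medians lie between -0.057, for the interaction, and 0.034, for KA in isolated rats, and most members lie inside the bars.

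Over all 44 members the median log2 difference was 0.034 for KA in isolated rats, where that of all probe sets tested was -0.0053, and 32 members lay above 0. In enriched rats it was -0.019, against -0.0033 for all, and 19 members lay above 0. After PBS, enriched against isolated housing gave 0.0098 for members and 0.0026 for all, and after KA it gave -0.040 and 0.0030. Of the members 28 lay above 0 after PBS, against 51% of all, or 19 with equal medians, against 44.1% of all. After KA 15 members did, against 51.1% of all. The mean KA effect lay above 0 for 26 members (47.9% of all), or 32 with equal medians (54.3%) and 29 after quantile normalization (49.3%). The mean housing effect did for 18 (51% of all), or 15 with equal medians (41.1%) and 21 after quantile normalization (49.5%). The median interaction was -0.057 for members, with 13 above 0, against -0.0006 for all. The members' median itself varied between pools of a group with an SD of 0.021.

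The core chaperones escort alpha rings into shape, Psmg1 paired with Psmg2 and Psmg3 with Psmg4. For KA in isolated rats all 4 lay above 0 (47.7% of all probe sets tested), with a median log2 difference of 0.17. In enriched rats 1 of 4 did (48.7% of all). For PBS_enriched against PBS_isolated, which shares the PBS_isolated pools, all 4 also lay above 0 (51% of all), with a median of 0.095. Psmg4 had 212, 235 and 263 signal units in KA_isolated pools and 218, 212 and 165 in PBS_isolated pools, with overlap. It had 205, 149 and 229 in KA_enriched pools and 222, 219.7 and 217 in PBS_enriched pools. KA_enriched replicate 2 was thus the lowest pool of all for Psmg4. The interaction was -0.42 (SE 0.19, adjusted p = 0.951), with an unadjusted p of 0.047, and it was -0.26 without that pool. For KA in isolated rats the log2 difference of Psmg4 was 0.24 (SE 0.14, adjusted p = 0.999), and 0.13 without PBS_isolated replicate 3.

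Psmg3 had the largest spread between pools of all members, a within-group SD of 0.30 on the log2 scale. It had 227, 164 and 222 signal units in KA_isolated pools, against 166, 153 and 186 in PBS_isolated pools. It had 142, 124 and 248 in KA_enriched pools and 157, 179 and 219 in PBS_enriched pools, so that KA_enriched held both the lowest and the highest pool. Psmg2 had 154, 159 and 154 in KA_isolated pools and 135, 149 and 149.6 in PBS_isolated pools, without overlap, and a log2 difference of 0.099 (SE 0.071, adjusted p = 0.999). Psmg1 varied by a ratio of 1.12 over all pools.

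The ATPases Psmc1 to Psmc5, those measured here, belong to the ring that unfolds substrates. For KA in isolated rats 3 of 5 lay above 0. Psmc2 had 769, 752.5 and 761 signal units in KA_isolated pools and 747, 733 and 752.3 in PBS_isolated pools, which did not overlap by a narrow margin. Its log2 difference was 0.032 (SE 0.066). Psmc3 was the most variable ATPase, with 380.01, 292 and 385 in KA_enriched pools and 409, 399 and 382 in PBS_enriched pools. Its log2 difference in enriched rats was -0.18 (SE 0.11, adjusted p = 0.932), and KA_enriched replicate 2 was again its lowest pool.

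Psmd4 is a ubiquitin receptor of the cap. It had 279, 303 and 326 signal units in KA_enriched pools, against 383, 365 and 373 in PBS_enriched pools, and these groups did not overlap. The log2 difference was -0.29 (SE 0.10, 95% interval -0.52 to -0.069), a fold of 0.817, with an unadjusted p of 0.014 and an adjusted p of 0.932. In isolated rats it had 308, 334 and 339.9 after KA and 309, 291 and 397 after PBS, which overlapped. The mean KA effect over both housings was -0.15 (SE 0.073, adjusted p = 0.996), or -0.086 without PBS_isolated replicate 3, and the interaction was -0.28 (SE 0.15, adjusted p = 0.951). Groups without overlap and lower after KA in enriched rats were found for 2 of 44 members, Psma3 and Psmd4, and for 4.62% of all probe sets tested. Groups without overlap and higher were found for 2, Psmb2 and Psmd9, and for 5% of all.

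Psmd2 is a large scaffold subunit to which ubiquitin receptors dock. It had 457, 332 and 492 signal units in KA_enriched pools, against 491, 521 and 494 in KA_isolated pools. The low value is that of KA_enriched replicate 2. The log2 difference was -0.24 (SE 0.11, adjusted p = 0.703), with an unadjusted p of 0.048, and it was -0.080 without that pool. Psmd8, a lid subunit, had 302, 280.1 and 334 in KA_enriched pools and 334, 333 and 368 in KA_isolated pools, with overlap and a log2 difference of -0.17 (SE 0.079, adjusted p = 0.705). PBS pools of both genes overlapped between housings.

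Psmd11, a lid subunit, was measured by 2 probe sets that disagreed. For PBS_enriched against PBS_isolated probe set 1374712_at had a log2 difference of 0.11 and 1376069_at one of -0.11, each without overlap of the groups. Probe set 1376069_at had 395, 371 and 380.2 signal units in KA_isolated pools and 413, 432 and 411 in PBS_isolated pools, also without overlap, with a log2 difference of -0.13 (SE 0.083, adjusted p = 0.999). It had 371, 309.7 and 383 in KA_enriched pools and 406, 377 and 377 in PBS_enriched pools. Over both housings its log2 difference after KA was -0.13 (SE 0.058, adjusted p = 0.996), with an unadjusted p of 0.0498, and it was -0.081 without KA_enriched replicate 2. Its mean housing effect was -0.11 (SE 0.058, adjusted p = 0.879). KA_enriched replicate 2 was the highest of all pools for 1374712_at and the lowest for 1376069_at.

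Of the other cap subunits, Psmd13 had 192, 191 and 194 signal units in KA_isolated pools and 188, 180.4 and 172 in PBS_isolated pools, without overlap. Groups without overlap and higher after KA in isolated rats were found for 4 of 44 members, Psma7, Psmg2, Psmc2 and Psmd13, and for 5.19% of all probe sets tested. Only Psmd11 1376069_at was lower without overlap, where the share of all probe sets was 5.62%. Psmd1, Psmd3, Psmd6 and Psmd7 had log2 differences between -0.055 and 0.16 for KA in isolated rats and between 0.0061 and 0.035 in enriched rats. The 15 cap probe sets together lay above 0 in 9 cases for KA in isolated rats and in 6 cases in enriched rats.

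Psmd9, Psmd5 and Psmd10 are chaperones that help to assemble the base of the cap. Psmd9 had 92.9, 101 and 97.4 signal units in KA_enriched pools, against 79.7, 85.4 and 85.8 in PBS_enriched pools, without overlap. It had 107, 102 and 76.9 in KA_isolated pools and 80.8, 77.7 and 90.3 in PBS_isolated pools, where replicate 3 of KA_isolated was the lowest of all. Over both housings the log2 difference after KA was 0.17 (SE 0.070, adjusted p = 0.996), with an unadjusted p of 0.030. The value in isolated rats alone was 0.16 (SE 0.099), and 0.080 to 0.28 when 1 pool was left out, and in enriched rats it was 0.18 (SE 0.099). No member had all KA pools of both housings apart from all PBS pools, which held for 0.0315% of all probe sets in the higher and 0.0735% in the lower direction. Psmd5 had 193, 206 and 190 in KA_enriched pools and 218, 220.2 and 207 in KA_isolated pools, without overlap. For KA_enriched against KA_isolated, 3 members were lower without overlap, Psmb5, Psmc4 and Psmd5 (4.53% of all), and 1 was higher, a probe set of Psme4 (6.28% of all). Psmd10 had log2 differences of -0.021 in isolated rats and 0.047 in enriched rats after KA.

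**Figure D4:**
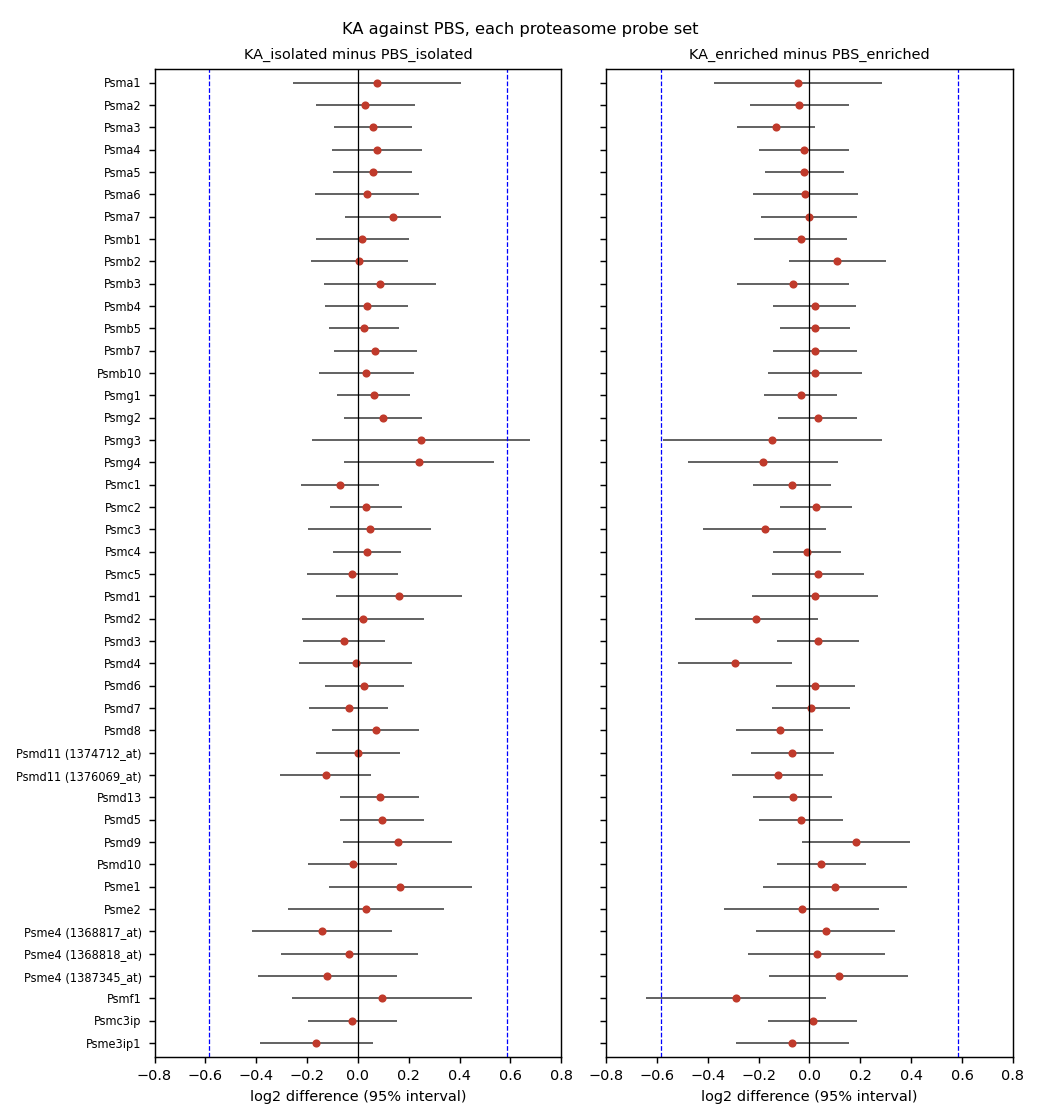
Log2 difference of KA from PBS with its 95% interval for each of the 44 probe sets, in isolated rats (left) and enriched rats (right), with dashed lines at a 1.5-fold difference either way. In both panels 43 of 44 intervals lie inside the dashed lines; the exceptions are Psmg3 in isolated rats and Psmf1 in enriched rats.

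The size of difference that these pools leave possible can be read from the intervals. The 95% interval lay within 1.5-fold, or 0.585 on the log2 scale, for 43 of 44 members for KA in isolated rats and for 43 in enriched rats. All probe sets tested had such intervals in 96.4% and 96% of cases. For housing, 44 members had them after PBS (96.6% of all) and 42 after KA (95.3% of all). For the mean KA effect and the mean housing effect 44 members had them, and 99.3% of all in both cases. Psmg3 and Psmf1 were the exceptions after KA. For the interaction 37 members had them, against 82.7% of all probe sets tested. The probe sets outside were those of Psma1, Psmg3, Psmg4, Psmd4 and Psmf1 and a pair of those of Psme4.

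Psme1 and Psme2 form an interferon-inducible activator that opens the core without ATP. Psme1 had 195, 255 and 196 signal units in KA_isolated pools, against 199.5, 189 and 178 in PBS_isolated pools. It had 180.03, 156 and 229 in KA_enriched pools and 177, 189 and 154 in PBS_enriched pools. The groups overlapped in both housings, and the log2 difference after KA was 0.17 (SE 0.13) in isolated rats and 0.10 (SE 0.13) in enriched rats, with adjusted p-values of 0.999 and 0.970. Without KA_isolated replicate 2 the value in isolated rats was 0.047, and without KA_enriched replicate 3 that in enriched rats was -0.036. The mean KA effect on Psme1 was 0.13 (SE 0.092, adjusted p = 0.996), or 0.065 without KA_enriched replicate 3. Psme2 had 122, 148 and 109 in KA_isolated pools, against 119, 132 and 116 in PBS_isolated pools. It had 104, 116 and 136 in KA_enriched pools and 95.6, 151 and 121 in PBS_enriched pools, and its log2 differences were 0.032 and -0.030. The gene Emc9 lies between Psme1 and Psme2 in the RefSeq annotation.

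Microglial and macrophage markers are given beside these inducible members. All 16 listed markers were measured, 13 of them above the filter and Itgam, Cd68 and Fcgr2b below it. Their summed signal was 2748 to 3240 in KA_isolated pools, against 1993 to 2127 in PBS_isolated pools, and 1866 to 2942 in KA_enriched pools, against 2015 to 2962 in PBS_enriched pools. The KA_isolated pool with the highest sum, replicate 2, was the highest of its group for Psme1 and Psme2 but not for Psmb10. The KA_enriched pool with the highest sum, replicate 3, was also the highest of its group for Psme1, Psme2 and Psmb10. PBS_enriched replicate 2, which had the highest sum of its group, was also the highest there for Psme1 and Psme2 but not for Psmb10. In PBS_isolated the pool with the highest sum, replicate 3, was the lowest of its group for Psme1 and Psme2 and the highest for Psmb10. The part of these cells in the signals was not tested.

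**Figure D5:**
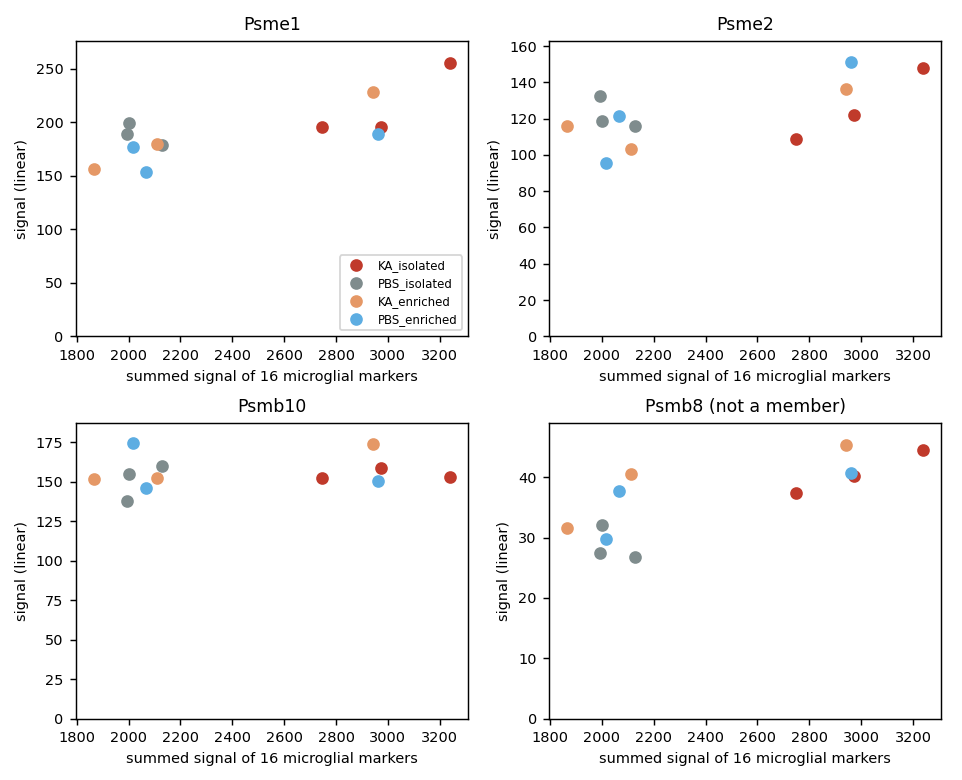
Signal of Psme1, Psme2, Psmb10 and Psmb8 in each pool (vertical axes from 0) against the summed signal of 16 microglial and macrophage markers (horizontal axis), coloured by group. The KA_isolated pools have sums of 2748 to 3240 and the PBS_isolated pools of 1993 to 2127; Psmb8, which is not a member, is dim in all pools, at 26.8 to 45.3.

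Psmb8 and Psmb9, the inducible subunits outside the rule, were below the filter and were not tested. Psmb8 had 40.2, 44.5 and 37.3 signal units in KA_isolated pools and 32.0, 27.4 and 26.8 in PBS_isolated pools, without overlap. It had 40.5, 31.6 and 45.3 in KA_enriched pools and 29.8, 40.7 and 37.7 in PBS_enriched pools, which overlapped. Psmb9 had 31.0, 27.4 and 29.0 in KA_isolated pools and 13.6, 5.87 and 27.3 in PBS_isolated pools. These did not overlap by a narrow margin, 27.44 in KA_isolated replicate 2 against 27.26 in PBS_isolated replicate 3. Of all probe sets tested, 5.19% were higher without overlap in that comparison. Psmb9 had 14.8, 11.3 and 26.8 in KA_enriched pools and 24.97, 18.8 and 14.0 in PBS_enriched pools, with overlap.

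Psme4 encodes a large single-chain activator and had 3 probe sets. For enriched against isolated housing after KA, 1368818_at had 81.0, 78.2 and 99.0 signal units in KA_enriched pools and 75.6, 76.3 and 66.0 in KA_isolated pools, without overlap. Probe set 1387345_at had 106, 98.1 and 77.0 in KA_enriched pools and 87.0, 81.1 and 67.0 in KA_isolated pools, and 1368817_at had 102, 97.5 and 111 against 101, 95.9 and 75.5, both with overlap. The log2 differences were 0.20 (SE 0.12, adjusted p = 0.776) for 1368818_at, 0.21 (SE 0.13, adjusted p = 0.769) for 1387345_at and 0.17 (SE 0.13, adjusted p = 0.833) for 1368817_at. The mean housing effect of 1368818_at was 0.17 (SE 0.088, adjusted p = 0.879), or 0.095 without PBS_enriched replicate 1. The interaction was 0.24 (SE 0.18) for 1387345_at and 0.21 (SE 0.18) for 1368817_at, both with an adjusted p of 0.961, and without PBS_isolated replicate 3 it was 0.10 and 0.093. For KA in isolated rats they were -0.14, -0.12 and -0.035 and for KA in enriched rats 0.064, 0.12 and 0.029, in the order 1368817_at, 1387345_at and 1368818_at. The probe sets share a gene and are not independent.

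Psmf1 binds the core and inhibits it in the test tube. It had 135, 69.3 and 131 signal units in KA_enriched pools, against 133, 139 and 134 in PBS_enriched pools. It had 145, 129 and 142 in KA_isolated pools and 121, 127 and 137 in PBS_isolated pools. The groups overlapped in both housings, and the single low pool, KA_enriched replicate 2, lay far below the other 11. The log2 difference in enriched rats was -0.29 (SE 0.16, adjusted p = 0.932), and it was -0.021 without that pool.

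The members that are not subunits also stayed below the threshold. Psmc3ip, a cofactor of recombination, lay between 52.8 and 69.4 signal units in all pools. Psme3ip1, named for its binding to the activator Psme3, had 194, 223 and 186 in KA_isolated pools and 217, 208 and 256 in PBS_isolated pools, with overlap. Its log2 difference was -0.16 (SE 0.10, adjusted p = 0.999).

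Genes around the proteasome gave no call in any comparison either. The lists held 4 tested probe sets of the immunoproteasome and antigen processing, 6 of proteasome cofactors and 3 of ubiquitin and its activating enzymes. They also held 13 of shuttle receptors and the p97 machinery, 12 of regulators of proteasome transcription and 33 of ubiquitin-conjugating enzymes. Of each, 0 passed in either direction. The immunoproteasome list had 9 probe sets on the array. Those tested were B2m 1367595_s_at and 1371440_at, Tapbp and Psmb10, itself a member. Psmb8, Psmb9, Tap1 and Tap2 were not tested, so the count of 0 does not cover them. B2m, the light chain of class I antigen presentation, averaged 1327 signal units in KA_isolated pools and 1067 in PBS_isolated pools by probe set 1367595_s_at. The log2 difference was 0.31 (SE 0.094, adjusted p = 0.999, limma) by that probe set and 0.19 (SE 0.11) by 1371440_at. By 1367595_s_at the PBS_enriched pools averaged 1242, a log2 difference of 0.21 (SE 0.094) from PBS_isolated. The microglial sums of the KA_isolated pools were also higher, and the part of these cells in B2m was not tested. Nfe2l2, a factor that binds antioxidant response elements, averaged 91.5 in PBS_enriched pools and 74.7 in PBS_isolated pools. That log2 difference was 0.24 (SE 0.086, adjusted p = 0.998). Pomp, the chaperone that matures the core, had log2 differences of 0.081 (SE 0.070) for KA in isolated rats and 0.10 (SE 0.070) for PBS_enriched against PBS_isolated.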

How the data were processed

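RNA of 12 pools of rat hippocampus was measured on 12 single-colour arrays. Per the labels the pools held 3 to 4 animals; groups came from the treatment labels and replicate numbers from the titles. The deposited values are probe set signals, array intensity on a linear scale. How probes were summarised was not given in the sources used here. Judged by the values, the authors had scaled each array to a common mean, since the mean without the lowest and highest 2% was the same on all, so no further normalization was made. Precision is limited by the small number of arrays.

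Of the probe sets, 57 controls were left out. Deposited intensity was put on the log2 scale as log2(signal + 17), 17 being the 20th percentile of the table, which understates differences of dim genes. The brightest 60% of 15866 probe sets by mean over all pools, 9520, were tested by lmFit and eBayes of limma 3.58.1 (R 4.3.3, 4 group means in 1 model, 13.07 degrees of freedom), two-sided, with Benjamini-Hochberg adjustment over each comparison. The procedure was tested on simulated data. Gene names came from the array annotation: 12789 probe sets had 1 symbol and 312 several, and 2771 were not listed; all 44 members matched a RefSeq gene and 0 symbols changed. Promoters are from RefSeq.

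Each comparison names the 2 members with the smallest p in each direction, and Psmb5, Psmb7, Psmb10, Psmd4, Psme1, Psme2, Psme4 and Psmf1 throughout. Other members were named after their values were seen, for groups without overlap, a wide spread or their role. Members and lists were chosen with earlier results of these data known. Alternatives covered the pseudocount, the filter, the normalization, an RNA quality covariate, array weights, a replicate block, the spread model and each pool left out. Counts of members above 0 under other scalings were added after seeing the data.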

Additional observations from a re-analysis of the deposited data

How the results depend on the processing

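No alternative called a member: 0 passed in each comparison under every setting that was run for it. The lowest adjusted p was 0.371 (limma), for KA_enriched against KA_isolated. The stricter filter left some dim members untested, and the fit on only the groups compared covered the comparisons of a pair of groups. The members' median log2 difference moved by more than the spread between pools, 0.021, in 3 settings without a pool left out. With equal array medians it was -0.062 for KA_enriched against KA_isolated, where it had been -0.040. With the beta-actin ratio as a covariate it was -0.079 for the interaction, and with array weights -0.042 for KA in enriched rats. Under the covariate and the weights the log2 difference of KA in enriched rats turned to -0.023 and -0.032 for Psmb7 and to -0.0084 and -0.016 for Psmb10, and 3 of 14 core probe sets lay above 0. The causes were not tested.

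Leaving out 1 pool at a time gave medians of 0.022 to 0.044 for KA in isolated rats, -0.033 to 0.0064 for KA in enriched rats, -0.0010 to 0.034 for housing after PBS, -0.045 to -0.0010 for housing after KA, -0.0012 to 0.022 for the mean KA effect, -0.017 to 0.0089 for the mean housing effect and -0.081 to -0.022 for the interaction. For KA in isolated rats the log2 difference of Psmb10 ranged from -0.024 to 0.071 and that of Psme2 from -0.075 to 0.12. In enriched rats the ranges were -0.038 to 0.093 for Psmb10, -0.18 to 0.11 for Psme2, -0.029 to 0.080 for Psmb7 and -0.036 to 0.21 for Psme1. Of the other values of named members, 446 kept their direction and side of the threshold with a pool left out and 356 did under the other settings. With the replicate number as a replicate block, 0 members were called. Every group holds the same replicate numbers, so the block cannot change a difference between groups. The medians for KA, 0.034 and -0.019, were therefore the same by design. Same-numbered pools of different groups correlated by -0.072 to 0.20 in their deviations, with 2 of 18 pairs over 0.1. Whether they share more than a number was not tested. With equal array medians 41.1% of all probe sets tested lay above 0 for the mean housing effect, against 51%.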

Other observations

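Probe sets that the annotation gives to several genes are no members, and their values cannot be assigned to 1 gene. The probe set shared by Psmb6l1 and Psmb6 had 425, 319.8 and 428 signal units in KA_isolated pools and 402, 398 and 392 in PBS_isolated pools, with overlap. It had 284, 367 and 417 in KA_enriched pools and 391, 401 and 367 in PBS_enriched pools. The probe set shared by Psma3l and Psma3 lay between 423 and 527 in all pools. It had 493, 482 and 446 in KA_enriched pools, 495, 458 and 495 in PBS_enriched pools and 478, 457 and 423 in PBS_isolated pools. PBS_enriched thus overlapped with both other groups, unlike in the Psma3 probe set described above. The brightest of the 4 probe sets shared by Psme3, Aoc3 and G6pc1, 1372506_at, had 376, 323 and 318 in KA_enriched pools. It had 378, 374 and 402 in PBS_enriched pools, with overlap.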
